A study of Mus musculus with 2 samples.

Results

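The qNSC2 cluster held 502 of the 10804 dentate gyrus (DG) cells deposited, 195 of the 5543 WT cells and 307 of the 5261 iKD cells. Its members were all cells of the table that the study's authors named qNSC2, a name they gave to one of 12 clusters formed from the expression of these same cells. Both libraries were made from sorted EYFP+ cells of the adult mouse DG, collected 21 d after tamoxifen (TAM), and each pooled 5 mice. WT mice were NestinCreERT2;VEGFWT/WT;ROSA-STOP-EYFP and iKD mice, labelled KO, were NestinCreERT2;VEGFfloxed;ROSA-STOP-EYFP, so both groups carried the Cre driver and the reporter and received TAM, and they differed in the floxed VEGF allele. The study's methods describe littermates that entered experiments at 7 to 10 wk of age. In this model the Nestin promoter drives a Cre that TAM activates, and a cell that recombines its ROSA allele makes EYFP. EYFP was not among the genes listed, so recombination could not be checked in these cells. There was 1 library per genotype and a cluster was compared with the cells it was split from, so no p-value is given, and intervals cover counting error alone.

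Quiescent neural stem cells (NSCs) of the DG are radial cells known for Sox2, Nestin, Gfap and Hopx, and they give rise to intermediate progenitor cells, neuroblasts and granule neurons. Microglia are the resident macrophages of the brain, known for Cx3cr1, P2ry12, Tmem119 and the C1q genes. MHC class I molecules, which all need B2m, show peptides on most cell types, whereas class II molecules are made mainly by professional antigen-presenting cells, with Cd74 as their chaperone. Apoe carries lipids out of glia, and Ctss is a lysosomal protease that trims Cd74.

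Levels are the mean over cells of a gene's counts per 10000 unique molecular identifiers (UMIs) of the cell, each UMI standing for 1 captured transcript, with no division by gene length. The median cell of the cluster held 8562 UMIs and 3235 genes in WT and 7238 UMIs and 2928 genes in iKD, against 8030 and 7075 UMIs in the other 11 clusters, and mitochondrial UMIs did not pass 1.74% in any of its cells. The lowest and highest cells of the cluster held 2088 and 11953 UMIs. No barcode of the cluster was shared between libraries, whereas 9 barcodes were shared over all cells. Cells were scored as female by Xist and male by 4 Y-linked genes. Of the cluster's cells that could be scored, 55.6% were female in WT (94 of 169, exact 95% binomial interval 47.8 to 63.2) and 83.7% in iKD (241 of 288, 78.9 to 87.8), against 62.3% and 76.1% in the other clusters, so values within each sex stand beside the genotype comparison. UMIs of both kinds occurred in 8 of the 195 WT cells (4.1%) and in 2 of the 307 iKD cells (0.651%), against 1.78% and 0.949% elsewhere.

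The markers went against the stem cell name. Of the 9 listed NSC markers none was found in more than 50% of the cluster's cells, their summed level was 0.272 in WT and 0.280 in iKD, and Sox2, a transcription factor of neural stem cells, had 0 UMIs in all 502 cells. Vim, an intermediate filament, had the highest level of the NSC list, at 0.17 in WT and 0.16 in iKD. Of the 6 intermediate progenitor markers 5 were at 0 in both libraries, including Eomes and Neurod1, and so were the neuroblast markers Dcx, Sox11 and Calb2. In contrast, all 16 microglia markers were found in more than 50% of cells in both libraries, and the median marker in 99.5% of cells.

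The microglia list summed to 432 in WT and 433 in iKD, beside 489 and 473 in the other clusters. Cx3cr1, the fractalkine receptor, stood at 32.2 in both libraries, P2ry12, a purine receptor, at 20.3 and 21.8, and Tmem119 at 9.85 and 10.1. Csf1r, the receptor that microglia need to survive, was at 23.6 and 22.9, and Sall1, a microglial transcription factor, at 2.46 and 2.96. No gene of the list differed by 1.5-fold between genotypes, and its median log2 ratio of iKD over WT was -0.01. By these lists the cells as a group bore the markers of microglia, with NSC markers low or absent. They are called the qNSC2 cluster after the table they came from, and their origin was not tested.

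**Figure D1:**
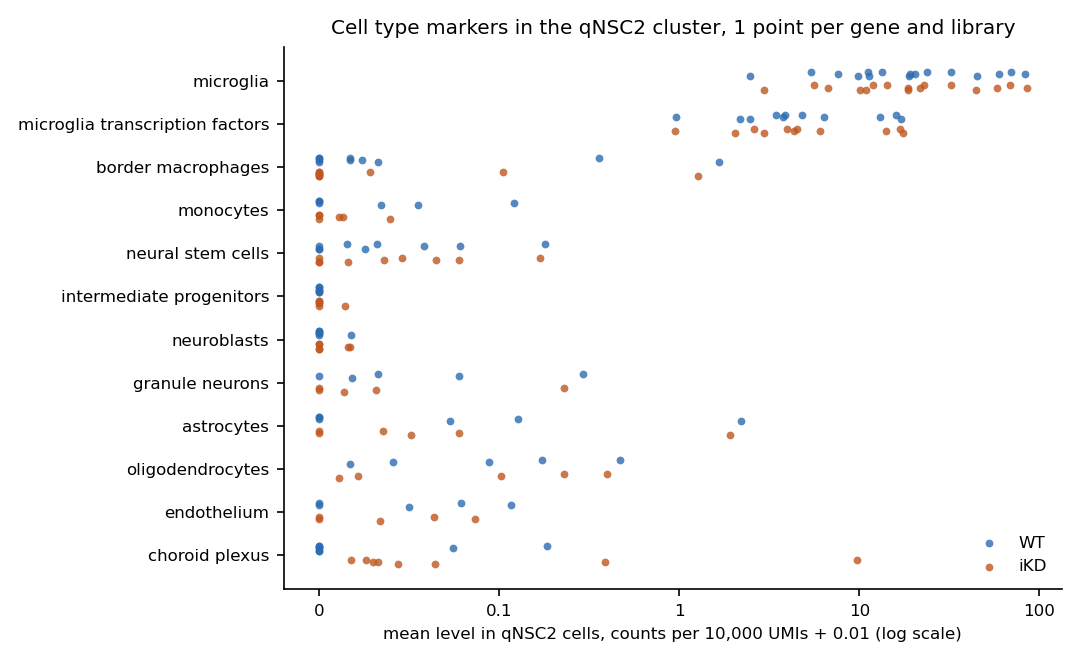
Mean level in the qNSC2 cluster of each marker gene of 12 lists, 1 point per gene and library (WT blue, iKD orange), in counts per 10000 UMIs on a log axis after adding 0.01. All microglia points lie to the right, with Sall1 at 2.46 and 2.96 and C1qa at 69.8 and 69.0, and the highest NSC marker, Vim, lies at 0.17 and 0.16.

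Markers of other cells the sort could hold were mostly at or near 0. Of the 8 lymphocyte markers 7 had 0 UMIs in both libraries, of the 6 neutrophil markers 5, and of the 10 markers of border-associated macrophages 4 (Lyve1, Cd163, Clec10a and Cd209f), with 1 of the 10, the scavenger receptor Stab1 (1.65 in WT and 1.26 in iKD), in more than 50% of cells. The astrocyte markers Gja1 and Aldh1l1 were at 0, while Slc1a3, a glutamate transporter, was at 2.19 in WT and 1.90 in iKD, below the 3.77 and 3.19 of the other clusters. The choroid plexus list was the exception. Its summed level was 0.220 in WT and 10.2 in iKD, and it differed by library in the other clusters too, from 0.679 to 39.3.

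Lysosomal, complement and cytoskeletal genes were among the most abundant. Cst3, a secreted cysteine protease inhibitor, had the highest level at 343 in WT and 341 in iKD, followed by the nuclear RNA Malat1 at 245 and 242. Ctss stood at 54.4 and 52.6, where the other clusters had 37.4 and 35.6, and C1qa, a chain of the complement starter C1q, at 69.8 and 69.0. Averaged over each cluster's cells, the log level of 6672 genes in the qNSC2 cluster was most like that of IPC1 (Pearson r = 0.985), eNB (0.983) and IPC2 (0.983), and least like that of the Astrocytes cluster (0.211), with qNSC1 at 0.967 and aNSC at 0.970. These correlations are across genes, which share library and depth, and are descriptions.

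Against the other 11 clusters, Klf2, Arhgap15, Emp3, Tcim and Apoe were among the genes that stood higher in the qNSC2 cluster, and Fcrls and Ddit4 among those that stood lower. Ratios were taken within each library and averaged, and a gene was called when this average was at least 2-fold and both libraries had the same direction. Of 4022 genes above the level minimum, 34 were higher (0.845% of them) and 12 lower (0.298%). Clustering chose the members by these same genes, so the calls describe the cluster and test nothing. The median log2 ratio over all these genes was -0.03.

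Klf2, a transcription factor known for keeping immune cells quiescent, was called higher (chr8:72319033-72321656 in GRCm38, plus strand). Its level was 14.2 in WT and 14.1 in iKD, against 4.12 and 3.79 in the other clusters, a mean log2 ratio of 1.84. Among the 12 clusters the qNSC2 cluster was highest in both libraries, aNSC came next on their average at 7.03 and 5.11, with IN1 above it in iKD at 6.25, and qNSC1 had 2.81 and 2.57. The median cell had 12.03 in WT and 11.4 in iKD, compared with 1.83 and 1.49 elsewhere, so the difference was not carried by a few cells. Klf2 was found in 87.7% and 90.6% of the cluster's cells and in 63.0% and 57.9% of the others. After each cell was thinned to 4500 UMIs, which left out 2 WT and 11 iKD cells of the cluster and 261 and 346 of the others, these shares were 86.0% and 87.2% against 55.4% and 52.4%.

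Arhgap15, an inhibitor of Rac signalling, was at 2.29 in WT and 1.62 in iKD against 0.21 and 0.17 elsewhere (log2 ratio 3.28), and in thinned cells it was found in 35.2% and 27.7% against 4.09% and 3.41%. In WT the next cluster was IN2 at 0.65, whereas in iKD it was aNSC at 1.21. Emp3, a membrane protein, was at 1.79 and 1.78 against 0.29 and 0.33 (2.47), found in 48.2% and 44.9% of thinned cells against 11.7% and 12.6%. Tcim, a small regulator linked to Wnt signalling, was at 0.89 and 1.01 against 0.11 and 0.13 (2.89). Lsp1 and Capg, which both bind actin, had log2 ratios of 1.81 and 1.87. For all 5 of these genes both libraries gave values past 2-fold. All 5 met the level minimum only through the qNSC2 cluster, which fixed their direction, so this agreement is no support.

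Apoe (chr7:19696109-19699188, minus strand) was at 20.6 in WT and 11.9 in iKD, against 3.38 and 4.17 in the other clusters, with log2 ratios of 2.60 and 1.51 and a mean of 2.06. It was highest in this cluster in WT, while in iKD qNSC1 stood above it at 13.9. B2m (chr2:122147686-122153083, plus strand) was at 15.7 and 13.02 against 9.64 and 8.65, a ratio of 0.65 that did not reach 2-fold, and aNSC had 16.2 and 13.8. Ctss (chr3:95526786-95556403, plus strand) had a ratio of 0.55, also under 2-fold, and the Undefined cluster was higher at 80.9 and 69.5. Of the 8 MHC class I genes above the minimum, 1 was higher, H2-D1, at 7.36 and 5.92 against 2.61 and 2.54 (1.36), and the median of the 8 was 0.21.

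The genes called lower included 1 of the 16 microglia markers. Fcrls, an Fc receptor-like gene of resident microglia, was at 7.61 in WT and 6.71 in iKD against 19.8 and 17.5 (log2 ratio -1.38), and of the 12 clusters only IN2, at 8.58 and 5.25, and Astrocytes had a lower average of the libraries. The median of the microglia list was -0.14. Ddit4, a stress-induced inhibitor of mTORC1, was at 0.66 and 0.25 against 1.3 and 0.75 (-1.27). It met the level minimum only through the other clusters, which fixed its direction. Ttr, the thyroid hormone carrier made by choroid plexus, and Chchd10 were also called lower, at -1.87 and -1.90, but without the Astrocytes, IN1, IN2 and Undefined clusters their ratios were 0.13 and 0.07. Ttr reached 634 in WT and 1031 in iKD in the Astrocytes cluster.

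A small shift ran through the ribosomal protein genes. None of the 80 above the minimum passed 2-fold, but 77 of them were higher than the other clusters in both libraries, where 30.9% of all genes were, and their median log2 ratio was 0.41. Their summed level was 644 in WT and 604 in iKD, against 468 and 466. Part of the shift was shared with qNSC1, which had 563 in both libraries, and the median ratio against it was 0.15. The aNSC cluster had 509 and 477, with a median ratio of 0.34.

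**Figure D2:**
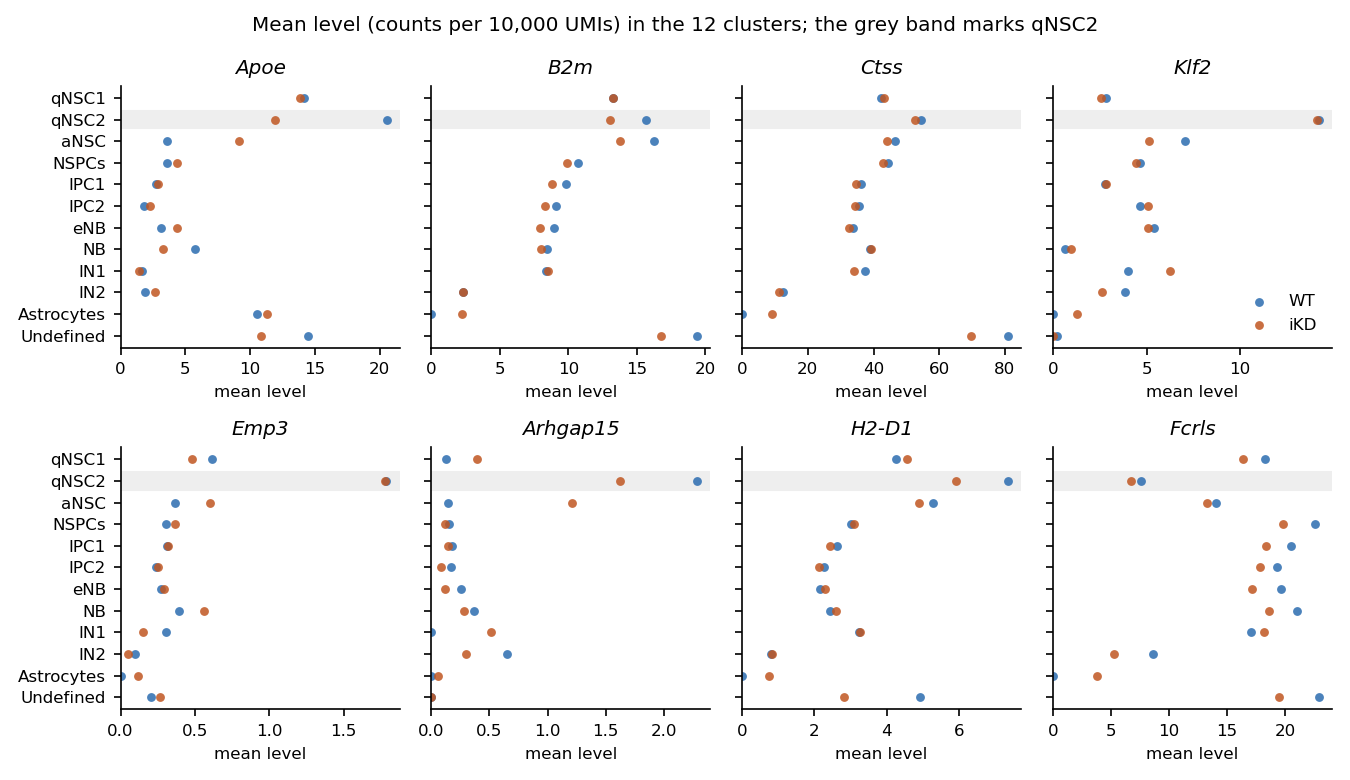
Mean level of 8 genes in each of the 12 clusters, in counts per 10000 UMIs on linear axes from 0, with WT in blue, iKD in orange and a grey band on the qNSC2 cluster. In that band Klf2 stands at 14.2 in WT and 14.1 in iKD, above the other clusters, and Fcrls at 7.61 and 6.71.

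qNSC1 was the other cluster with the quiescent NSC name. Of 4179 genes, 41 were higher in the qNSC2 cluster than in qNSC1 (0.981%) and 124 were lower (2.97%). Of 10 chemokine and cytokine genes above the minimum 8 were lower and none higher, but 4 of the 10 met the minimum only through qNSC1, which fixed their direction. Of the 6 that met it by their level in the qNSC2 cluster, 4 were lower, Ccl3, Ccl4, Ccl9 and Ccl12. Ccl4, a chemokine that draws monocytes and T cells, was at 1.20 in WT and 1.23 in iKD against 33.3 and 21.0 in qNSC1 (-4.43), and Ccl3 at 0.96 and 1.27 against 10.3 and 8.67 (-3.08). Csf1, a growth factor for macrophages and one of the 4 that met the minimum only through qNSC1, was at 0.26 and 0.22 against 3.01 and 1.86 (-3.24).

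Of the disease-associated microglia genes, a signature that microglia take on near damaged or diseased tissue, 7 met the minimum by their level in the qNSC2 cluster, and 2 of these, Cd9 and Cd63, were lower than in qNSC1 and none higher. Another 3 met it only through qNSC1. Cd63 was at 2.86 and 2.5 against 14.3 and 12.1 (-2.29), and Cd9 at 8.54 and 8.25 against 25.5 and 20.8 (-1.46). Both encode tetraspanins. Among those 3, Lpl, a lipase that releases fatty acids, was at 0.25 and 0.28 against 1.43 and 1.76 (-2.54). Lgals3, a secreted lectin, had 1 UMI in WT and 3 in iKD within the qNSC2 cluster, where qNSC1 had levels of 0.71 and 0.54. Apoe, a member of the same list, did not follow it, with 14.2 and 13.9 in qNSC1 and a ratio of 0.16. Of 10 glycolysis genes that met the minimum by their own level 4 were lower, Aldoa, Ldha, Tpi1 and Pgam1. Of 18 lysosome genes 1 was lower, Ctsb, with a median of -0.33 for the list beside 0.02 over all genes. The genes higher than in qNSC1 included Klf2 (2.39), Arhgap15 (3.03), Emp3 (1.69) and Tsc22d3, a glucocorticoid-induced leucine zipper protein, at 4.56 and 3.71 against 1.3 and 1.08 (1.79). Of these, Arhgap15 met the minimum only through the qNSC2 cluster, which fixed its direction.

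aNSC, the cluster named for activated stem cells, stood higher in interferon-stimulated genes. Of 4044 genes, 16 were higher in the qNSC2 cluster than in aNSC (0.396%) and 100 were lower (2.47%). All 12 interferon-response genes were lower, but 10 of them met the minimum only through aNSC, which fixed their direction. The 2 that met it by their level in the qNSC2 cluster were Bst2, which tethers budding viruses, at 1.13 and 1.14 against 8.10 and 6.57 (-2.67), and Ifi27l2a, at 0.52 and 0.50 against 2.18 and 1.65 (-1.88). Isg15, a ubiquitin-like protein induced by interferon, was at 0.08 in both libraries against 4.49 and 3.56 in aNSC (-5.44). Ifit2 had 0 UMIs in the WT cells of the qNSC2 cluster, which put it at least 163-fold lower than in aNSC when 3 UMIs per library were taken as the limit of a count of 0. Cxcl10, an interferon-induced chemokine, had 0 UMIs in both libraries and was at least 17.5-fold lower in WT and at least 100-fold lower in iKD. Of 8 MHC class I genes that met the minimum by their own level, H2-T23 and Psmb9 were lower, at -1.31 and -1.10, and Tap1 and Nlrc5, which met it through aNSC alone, were at -1.37 and -2.79. Of 6 chemokine and cytokine genes at their own level 1 was lower, Ccl12, at 1.22 and 1.08 against 8.07 and 6.46 (-2.64), further than against qNSC1 (-1.02).

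The genes higher than in aNSC again included Tcim (2.02), Emp3 (1.90) and Klf2 (1.24). Tcim and Emp3 met the minimum only through the qNSC2 cluster, which fixed their direction. Apoe and Arhgap15 were called higher too, with mean ratios of 1.45 and 2.17, but mostly through WT. In WT alone Apoe had 2.52 and Arhgap15 3.91, and in iKD alone they had 0.38 and 0.42, under 2-fold. The aNSC cells were 21.5% female in WT and 94.1% in iKD. Among female cells Apoe had 0.88 and Arhgap15 1.58, and among male cells 3.16 and 3.17. The aNSC cluster held 38 female and 139 male cells in WT and 96 and 6 in iKD. The male ratios, which weigh the libraries equally, thus rest in part on 6 cells, and a difference between the sexes was not tested.

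**Figure D3:**
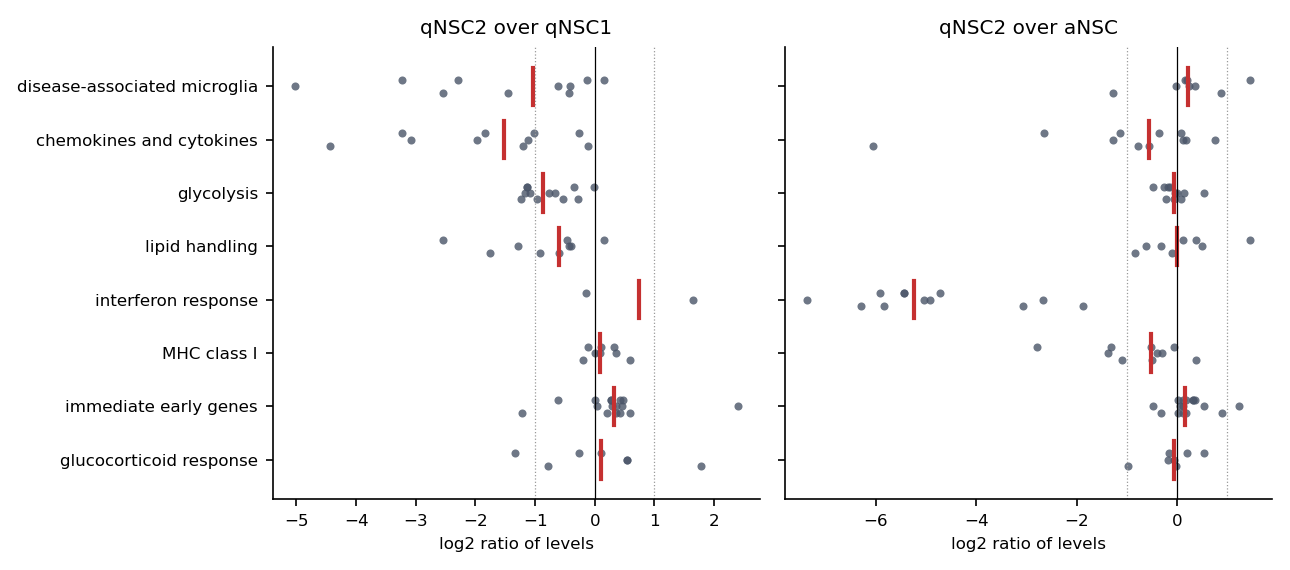
Log2 ratio of the mean level in the qNSC2 cluster over qNSC1 (left) and over aNSC (right), averaged over the libraries, with 1 point per gene above the level minimum, a red bar at each list's median and dotted lines at 2-fold. Points include genes that met the minimum in 1 of the compared clusters only. Ccl4 lies at -4.43 against qNSC1 and Isg15 at -5.44 against aNSC.

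Within the cluster, the cells differed most in Apoe. The variance-to-mean ratio of UMIs over cells, taken about the level expected from each cell's depth and near 1 for counting noise alone, had a median of 1.26 in WT and 1.22 in iKD over 3528 genes, and for Apoe it was 112 in WT and 46.3 in iKD, the second and the first in order of all these genes. Apoe was at 0 in 33.3% of WT and 37.1% of iKD cells, the median cell had 3.48 and 2.01, and the highest cell had 638 in WT, from 453 UMIs, and 153 in iKD. Levels of 50 or more occurred in 20 WT cells (10.3%) and 19 iKD cells (6.19%), against 0.673% and 1.09% of the other clusters' cells. The other clusters had a median of 0 in both libraries and upper quartiles of 2.44 and 3.27, where the qNSC2 cluster had 15.02 and 9.64. The 20 highest WT cells and the 31 highest iKD cells, 1 in 10 of the cluster, held 66.8% of its Apoe UMIs in each library, and 1 in 10 of the other cells held 71.2% and 68.5%. The median and the upper quartile were thus higher in the cluster, along with the upper tail. Of the 50 genes with the highest ratio, 38 were the same in both libraries, among them Cst3, Malat1, Fos and Ccl4.

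Cd74 was the most variable gene in WT, at a ratio of 164, while in iKD its ratio was 3.8. The class II genes behind it came from very few cells. The WT cells held 419 UMIs of H2-Aa, H2-Ab1 and H2-Eb1 together, of which 384 (91.6%) were in 2 cells, 234 in one and 150 in the other. Another WT cell had 10 and 1 iKD cell had 9, and 175 of 195 WT and 275 of 307 iKD cells had 0. The 2 high cells, both scored as female, had 239 and 124 UMIs of Cd74, 93 and 70 of Apoe, 7 and 3 of Ccr2, a chemokine receptor of monocytes, and 2 and 16 of Mgl2, a lectin of dendritic cells and macrophages. They had no UMI of P2ry12 or Tmem119, where the rest of the WT cells had a mean of 17.5 for P2ry12 and 8.39 for Tmem119. C1qa, at 26 and 38 UMIs, was seen in both, beside a mean of 59.2 in the rest. The 2 cells held 5077 and 4595 UMIs in all.

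Without the 4 cells with 5 or more class II UMIs, a setting chosen after the data were seen, H2-Aa, H2-Ab1, H2-Eb1, Cd74 and St8sia4 were no longer called higher than in the other clusters, which left 29 genes, and Apoe stood at 19.1 in WT and 11.7 in iKD. For H2-Aa the log2 ratio went from 3.37 to 0.27 and for H2-Ab1 from 2.67 to 0.995, with 1.22 in WT and 0.77 in iKD. H2-Eb1 then had 0 UMIs in WT and 6 in iKD. Cd74 kept a ratio of 1.38 but had levels of 0.41 and 0.53, under the minimum. The calls of the class II genes therefore rested on these cells, although H2-Ab1 and Cd74 stayed above the other clusters, and the call of Apoe did not.

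The starts of these genes are shown because the class II genes moved together in the same cells, beside B2m, which serves class I and was found in nearly all cells. The sequences are from RefSeq on GRCm38.p6, from 250 bases before the start of the gene to 50 after it, read 5′ to 3′ on the strand of the gene. Capitals mark ATTGG or its complement CCAAT, the letters of the Y box, and TGACG or its complement CGTCA, letters found in the X2 box, both known elements of MHC promoters, with matches of TGACG on the 2 strands overlapping in H2-Aa. H2-Aa was at chr17:34287774-34288073 on the minus strand, H2-Eb1 at chr17:34305617-34305916 on the plus strand and B2m at chr2:122147437-122147736 on the plus strand.
H2-Aa: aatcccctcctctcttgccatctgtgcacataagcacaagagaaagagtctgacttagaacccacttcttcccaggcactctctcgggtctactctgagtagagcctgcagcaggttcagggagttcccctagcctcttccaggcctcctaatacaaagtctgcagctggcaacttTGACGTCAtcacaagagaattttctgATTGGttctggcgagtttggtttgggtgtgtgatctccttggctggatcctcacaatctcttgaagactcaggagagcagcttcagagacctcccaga
H2-Eb1: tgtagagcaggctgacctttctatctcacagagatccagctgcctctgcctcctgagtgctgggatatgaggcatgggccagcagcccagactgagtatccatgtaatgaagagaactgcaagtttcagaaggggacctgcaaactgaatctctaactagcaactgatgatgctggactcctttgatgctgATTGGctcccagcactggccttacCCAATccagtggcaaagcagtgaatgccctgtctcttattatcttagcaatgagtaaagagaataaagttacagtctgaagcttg
B2m: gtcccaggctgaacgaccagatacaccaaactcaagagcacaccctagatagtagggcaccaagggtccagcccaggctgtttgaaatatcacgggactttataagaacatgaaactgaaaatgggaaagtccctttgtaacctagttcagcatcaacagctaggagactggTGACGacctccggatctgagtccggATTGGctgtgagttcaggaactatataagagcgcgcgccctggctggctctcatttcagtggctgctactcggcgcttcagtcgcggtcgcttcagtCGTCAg
H2-Aa held 1 match to the first motif and 2 to the second, H2-Eb1 held 2 and 0, and B2m held 1 and 2. Of 32817 promoters of this length 37.4% held the first, 20.8% the second and 7.71% both, so the matches describe the letters and show no binding.

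**Figure D4:**
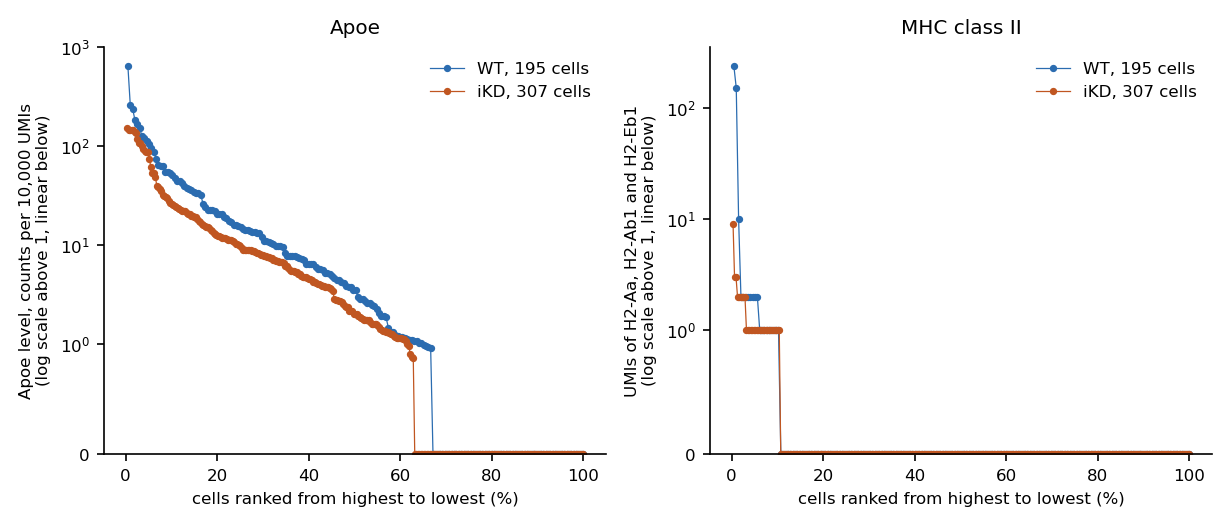
Apoe level in counts per 10000 UMIs (left) and summed UMIs of H2-Aa, H2-Ab1 and H2-Eb1 (right) in each cell of the qNSC2 cluster, ranked from highest to lowest within WT (blue) and iKD (orange), on axes that are logarithmic above 1 and linear below. Apoe in WT drops from 638 in the highest cell to 262 in the next and then declines in smaller steps. In iKD it declines from 153. For class II, 2 WT cells stand alone at 234 and 150 UMIs.

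The knockdown question was whether losing VEGF in the NestinCreERT2 lineage changed these cells. The cluster made up 3.52% of WT cells (195 of 5543, exact 95% binomial interval 3.05 to 4.04) and 5.84% of iKD cells (307 of 5261, 5.22 to 6.5). Among female cells the shares were 2.97% (2.41 to 3.62) and 6.60% (5.82 to 7.46), and among male cells 3.88% (3.07 to 4.84) and 4.21% (3.11 to 5.56). The share was thus higher in iKD among female cells, while the male intervals overlapped. The cells were clustered on expression, and Apoe, one of the genes that marked the cluster, differed between genotypes. With 1 pool of mice per genotype, the sort, the animals and the genotype cannot be told apart.

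Between genotypes within the cluster, a gene was called when the iKD and WT levels differed by at least 1.5-fold. Genes that met the level minimum in WT alone or in iKD alone, such as Ttr, Cacna1a, Ddit4 and H2-Aa, had their direction fixed by it. Of 3988 genes 29 were higher in iKD (0.727% of them) and 28 lower (0.702%), and the median log2 ratio over all genes was 0.00. The counting interval of each of the 57 called genes left out 0. The same values chose these genes by fold and level, which made this likely, so it is no support for the calls. Of the 29 higher genes 25 had ratios above 0 in both female and male cells, and of the 28 lower genes 23 had ratios below 0 in both. These cells are parts of the pool whose ratio chose the genes, so a shared direction is partly built in. The share over all genes is not given, and the counts are descriptions. At the same fold, 1.92% of all genes were higher and 1.74% lower among female cells, and 8.16% and 8.31% among male cells, which were fewer. At a level of 1 or more in the higher library, 8 higher and 11 lower genes remained.

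Ttr had the largest ratio. It stood at 0.17 in WT and at 9.71 in iKD (log2 ratio 5.72, counting interval 5.14 to 6.37), and at 5.52 and 5.48 in female and male cells. It differed in the same way in the other clusters, from 0.63 to 37.2, and the choroid plexus list moved with it. Of its 8 genes 6 had 0 UMIs in WT and none did in iKD, and their summed UMIs in the cluster were 31 and 2261. The part of RNA from choroid plexus cells in these values was not tested. Fosb, an immediate early transcription factor, was at 2.53 in WT and 4.12 in iKD (0.70, 0.53 to 0.87), with 0.37 in female and 1.64 in male cells. It was the 1 of 16 immediate early genes called, beside a list median of 0.14, and Fos itself was at 15.8 and 21.9 (0.47). Gnas, the stimulatory G protein subunit, was at 8.68 and 13.8 (0.67, 0.58 to 0.76), with 0.56 and 0.68 within sex, and the other clusters had 9.88 and 11.6. Cass4, an adhesion scaffold, was at 0.57 and 1.0 (0.80) and Cacna1a, a calcium channel subunit, at 0.42 and 0.77 (0.86). Xist was called at 0.73 with the larger female share in iKD, and among female cells its ratio was 0.09.

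Apoe was the most abundant gene called lower in iKD. It went from 20.6 to 11.9 (log2 ratio -0.79, -0.86 to -0.71), with -0.87 in female and -0.86 in male cells, -0.60 without the highest cell of each library and -0.71 without the 4 class II cells. Over all cells of the other clusters Apoe was at 3.38 in WT and 4.17 in iKD, on the opposite side, but single clusters differed. Apoe was lower in iKD in NB (5.71 in WT and 3.25 in iKD) and Undefined (14.5 and 10.8). It was slightly lower in qNSC1 (14.2 and 13.9) and IN1 (1.70 and 1.44). It was higher in iKD in aNSC (3.58 and 9.13), NSPCs, IPC1, IPC2, eNB, IN2 and Astrocytes. The counting interval takes no account of the spread over cells, which was widest for this gene. The share of cells at 50 or more, 10.3% in WT and 6.19% in iKD, went the same way as the mean.

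Fkbp5, a co-chaperone induced by glucocorticoids, was at 6.49 in WT and 3.18 in iKD (-1.03, -1.16 to -0.89). The sexes differed in value, which was not tested. Female cells had 4.0 and 3.45 (-0.21), whereas male cells had 9.14 and 2.13 (-2.10), and the other clusters showed 5.92 and 3.52. Ddit4, also induced by glucocorticoids and by hypoxia, was at 0.66 and 0.25 (-1.38), with 0.02 in female and -3.49 in male cells. Of 7 genes of the glucocorticoid list these 2 were called lower, and the list's median was -0.30, -0.04 in female and -0.70 in male cells. Ddit4 met the level minimum only through WT, which fixed its direction.

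Mt1, a metallothionein that binds zinc and copper, was at 1.29 and 0.65 (-0.99), with -1.11 and -1.46 within sex. Chka, the first enzyme of phosphatidylcholine synthesis, was at 4.03 and 2.45 (-0.72, -0.88 to -0.55), with -0.58 and -0.61. Id2, an inhibitor of helix-loop-helix factors, was at 1.19 and 0.73 (-0.71), and Gt(ROSA)26Sor, the locus that carries the reporter, at 1.37 and 0.83 (-0.70), beside 1.09 and 0.80 in the other clusters. The class II genes were called lower as well, Cd74 from 4.26 to 0.57 and H2-Aa from 1.40 to 0.02. Without the 4 cells described above their ratios were 0.38 and 0.25, so these calls rested on those cells, and 22 lower genes remained.

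**Figure D5:**
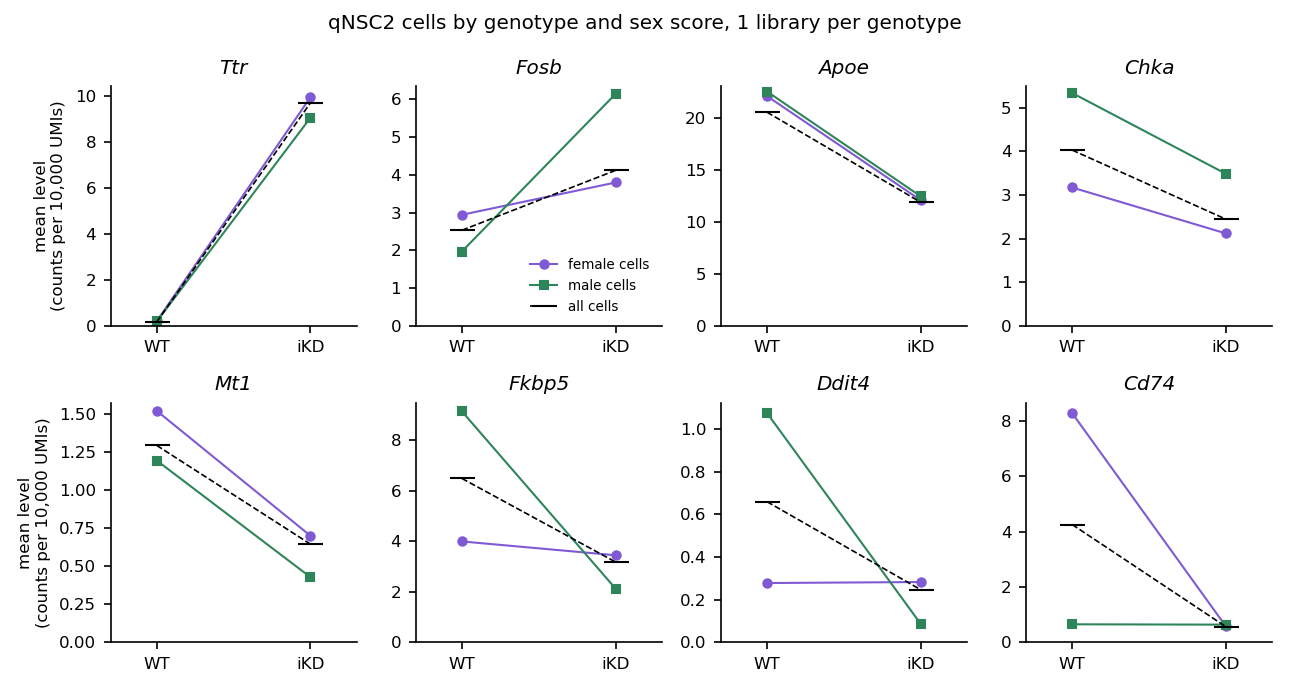
Mean level of 8 genes in the qNSC2 cluster in WT and iKD, in counts per 10000 UMIs on linear axes from 0, with circles for female cells, squares for male cells and dashed lines for all cells. The Apoe lines run together, from 20.6 to 11.9 in all cells, while Fkbp5 runs from 4.0 to 3.45 in female and from 9.14 to 2.13 in male cells.

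The remaining lists showed little between genotypes. None of the 9 heat shock protein genes was called, although all 9 had ratios below 0 with a median of -0.28, compared with 49.7% of all genes below 0. None of the 8 MHC class I genes was called (median -0.21), with B2m at 15.7 and 13.02 (-0.27), nor any of the 80 ribosomal protein genes (-0.06), the 18 lysosome genes (-0.03) or the 2 interferon-response genes above the minimum. Klf2 and Emp3, which set the cluster apart, both had ratios of -0.01, and Ctss had 54.4 and 52.6.

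VEGF itself was hardly seen in these cells. Vegfa, the floxed ligand, had 0 UMIs in the 195 WT cells and 2 in the 307 iKD cells, so its deletion could not be read here. Of its receptors, Kdr had 9 and 8 UMIs and Flt1 3 and 3, while the co-receptor Nrp1 was at 1.70 and 1.51. Vegfb, a ligand of Flt1, was at 0.37 and 0.43, and at 1.04 and 0.94 in qNSC1. Of the 11 genes above the minimum that the study's single-cell text named, a list chosen on these samples, Fosb was called higher and Apoe lower in iKD.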

How the data were processed

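Single-cell RNA-seq libraries of EYFP+ DG cells were compared, 1 WT and 1 iKD. The authors deposited natural log values, ln(1 + counts per 10000 UMIs), 1 table per cluster. The submitters' notes list Cell Ranger 7.0.1, CASAVA 1.8.2, HISAT2 2.0.6, Subread, featureCounts and Seurat 4.1.1 and the build GRCh38, although the genes are mouse, so the build is not settled. All cells and columns were used. Values of some genes are not reported here. The study's methods removed multiplets and damaged cells by limits on detected genes, with a minimum of 2000, and on mitochondrial share. The deposited cells held 1004 to 3999 genes, 496 of them under that minimum, and no doublet caller was run. The study's sheet of cell counts gives this cluster number as qNSC1, and the name of its table was kept.

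UMI counts were recovered from the log values. All 32261786 values above 0 came out whole within 0.02, over 10804 cells and 32285 genes. Totals were 44142118 UMIs in WT and 37451839 in iKD. Ratios used a pseudocount of 0.01 and a level minimum of 0.5 in either compared group, and fold changes are on the log2(level + 0.01) scale. Exact Poisson and binomial intervals (95%) cover counting error only. Named genes were the markers, the listed genes, the 20 highest levels, the 15 largest ratios in each direction per comparison and genes in the top 50 for spread in both libraries. The members and the 38 gene lists were chosen with earlier results of these data known. Gene coordinates are from GENCODE M21 (GRCm38) and promoters from RefSeq. The ratio code was tested on simulated data. Python 3.11.15, numpy 2.4.6, scipy 1.17.1 and pandas 2.3.3 were used. Alternatives were another scaling, pseudocount, minimum and denominator, thinning, single sexes, single libraries and cells left out.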

Additional observations from a re-analysis of the deposited data

Results flagged for a closer look

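Of the genes called between genotypes in the qNSC2 cluster, 4 of 29 higher and 5 of 28 lower genes did not keep their direction in both female and male cells, and 3 of those with the largest ratios, Xist and Tsix aside, are given here. Genes that were not called could also differ in sign, as did Ccl4, at -0.49 in female and 1.54 in male cells. H2-Eb1 had -7.01 in female and 2.02 in male cells, and H2-Ab1 had -4.49 and 0.56. The male values rested on 2 UMIs of H2-Eb1 in WT and 6 in iKD, and on 12 of H2-Ab1 in each library, while the female WT values held the 2 cells with most of the class II UMIs. Ddit4 had 0.023 in female and -3.49 in male cells, where the 75 WT cells held 64 UMIs and the 47 iKD cells 3. The difference between the sexes was not tested for any of them, since each genotype was 1 library of pooled mice.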

How the results depend on the processing

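No paired analysis was possible because each genotype had 1 library and the labels give no replicate numbers. Leaving out a library left no genotype comparison. The counts of called genes moved under the settings below, and the cause was not tested except where stated. With a pseudocount of 1 in place of 0.01, the higher and lower genes were 9 and 2 against the other 11 clusters, 4 and 18 against qNSC1, 2 and 31 against aNSC, and 3 and 6 for iKD against WT. With a level minimum of 0.1 they were 85 and 77, 153 and 290, 85 and 191, and 362 and 301, as more genes of low level were tested. In male cells alone, of which there were fewest, they were 123 and 191 against qNSC1, 224 and 210 against aNSC, and 344 and 350 between genotypes, with 20 lower than the other clusters. In female cells alone 77 and 70 were called between genotypes, with cells thinned 59 and 66, and with the mean of the female and male ratios 53 and 56. In the WT library alone 85 genes were higher than in qNSC1 and 38 higher than in aNSC. When the other 11 clusters had equal weight, 135 genes were lower. The shares of cells, the female shares and the count of variable genes shared by both libraries moved by less than their intervals or by less than 1.5 times.

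Signs turned for few genes. Against the other clusters Ttr was at 0.020 in female cells and at 0.13 without the Astrocytes, IN1, IN2 and Undefined clusters, where Chchd10 was at 0.070. H2-Aa against qNSC1 was at -1.06 in male cells and Myo18b against aNSC at 1.92, where aNSC had 6 male cells in iKD. Between genotypes Ddit4 was at 0.023 in female cells, and H2-Eb1 at 2.02 and H2-Ab1 at 0.56 in male cells. Without the 4 cells rich in class II UMIs, a setting added after seeing the data, H2-Eb1 was at -0.18 against the other clusters and at 1.77 between genotypes, both set by the pseudocount since it then had 0 UMIs in WT and 6 in iKD, and between genotypes H2-Aa was at 0.25, Cd74 at 0.38 and H2-Ab1 at 0.033. Genes with levels under 1 rest on few UMIs, and a count of 0 in the cluster allows a level of up to 0.0180 in WT and 0.0133 in iKD.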

Other observations

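NF-kB pathway genes of the qNSC2 cluster stood slightly above those of the other clusters, with a median log2 ratio of 0.44 over 6 genes. In both libraries 4 of the 6 were higher, where 30.9% of all genes were, and none passed 2-fold. Genes of complement and its receptors (8 genes, median 0.07) and Fc receptors (6 genes, median 0.07) lay close to the other clusters, and so did the 72 nuclear genes of oxidative phosphorylation (median -0.13), beside -0.03 over all genes. Of the 20 listed immediate early genes 16 were above the minimum. Of these 12 were higher in both libraries, beside the same 30.9% of all genes, with Klf2 the 1 called.

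Across the cluster's thinned cells, 193 in WT and 296 in iKD, the gene whose level ran most against Klf2 was Fcrls, with Spearman's rho of -0.38 and -0.27 over cells of 1 library, among 6115 genes compared. Emp3 had 0.30 and 0.21 with Klf2, and Tsc22d3 had 0.25 and 0.24. The gene with the highest rho for Apoe in WT was Lyz2, the macrophage lysozyme, at 0.33, with 0.17 in iKD. These cells share a library, the counts are sparse and the values are descriptions. Fcrls and Klf2 also stood on opposite sides between the cluster and the rest, with median cells at 6.08 and 5.11 for Fcrls against 18.9 and 16.8 elsewhere.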
